A study of Homo sapiens with 5 samples.

Results

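The subtelomeric bins of the autosomes are the outermost 10 bins of 500 kb at each chromosome end, 5 Mb per end, in the hg19 build. They were counted inward among bins with at least 0.2 of the median coverage, the total contacts of a bin in the 3 matrices summed. The short arms of the acrocentric chromosomes 13, 14, 15, 21 and 22 gave no end. This left 39 ends, 17 of p arms and 22 of q arms, with 390 of the 5353 autosomal bins that passed the coverage filter. At the threshold, the least covered members were the outermost bins of 16q, 7q and 19q, at 0.228, 0.231 and 0.254 of the median, and 8 bins beyond the members were left out with 0.00127 to 0.0873 of it.

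Chromosome ends carry the telomere repeat and, next to it, the subtelomere, a region that on many human arms is rich in genes and in sequence shared between chromosomes. In interphase nuclei most active, gene-rich chromatin lies in the A compartment and contacts other A chromatin, also on other chromosomes, while the short gene-rich chromosomes tend to lie together near the centre of the nucleus. Several genes known in blood cells lie near these ends: ELANE, PRTN3 and AZU1, which encode granule proteins of neutrophils, on 19p, the alpha-globin genes HBA1 and HBA2 on 16p, the interferon-induced IFITM1, IFITM2 and IFITM3 on 11p, ISG15 on 1p, and IRF4, a transcription factor of lymphoid and myeloid cells, on 6p. TERT, the catalytic subunit of telomerase, lies near the end of 5p, and RTEL1, a helicase that acts at telomeres, near that of 20q.

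Hi-C, which ligates and counts pairs of DNA fragments that lie close in the nucleus, was done in HL60 cells, a human leukemia line of promyelocytic origin, after HindIII digestion in solution. Cells were treated with all-trans retinoic acid (ATRA, 1 library), which drives HL60 toward granulocyte-like cells, treated with the phorbol ester TPA (2 libraries), which drives it toward macrophage-like cells, or left untreated (2 libraries). The labels give no dose or duration, and the libraries of a condition were merged, so each condition is 1 matrix. There was no spread between replicates and no test was made: every interval below is a 95% interval that covers counting error only, and a difference between matrices has no replicate check.

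The matrices held 9632300 contacts in ATRA, 10423501 in TPA and 10628045 in untreated cells. A member bin had a median of 3770 contacts in ATRA, 4377.5 in TPA and 4694 in untreated cells. Of the members' contacts, 70.1% in ATRA, 67.1% in TPA and 64.0% in untreated cells were with another chromosome (trans), against 70.0%, 65.7% and 63.1% for inner bins matched to them. Inner bins were those more than 20 kept bins from a chromosome end and more than 10 from the centromere gap, of which there were 4183. From them, 1 was matched to each member on coverage within its chromosome, so that median coverage was 1.25 times the genome's median in the ends and 1.24 times in the matched inner bins. Contacts are given as observed over expected, the expectation being that of bins which contact all other chromosomes in proportion to their trans coverage.

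Chromosome ends contacted the ends of other chromosomes more than inner bins contacted each other in all 3 matrices, and this excess was smaller in both treated matrices than in the untreated one. Between ends, 46444 contacts were seen in ATRA, 1.20 times the expectation (1.19 to 1.21). In TPA there were 55876, also 1.20 times (1.19 to 1.21), and in untreated cells 64495, 1.34 times (1.33 to 1.35). The matched inner bins stood at 1.00 in ATRA, 0.997 in TPA and 1.01 in untreated cells, so the ends exceeded them 1.20-fold (1.18 to 1.21), 1.21-fold (1.19 to 1.22) and 1.32-fold (1.31 to 1.34). Because contacts between ends enter their own expectation, these values are lowered. With the expectation fitted without them, ends exceeded inner bins 1.24-fold in ATRA, 1.26-fold in TPA and 1.42-fold in untreated cells.

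Ends also lay further toward the A side of the compartment score than inner bins. The score is the leading pattern in the trans contacts of each bin with inner bins (1 unit is its SD over all bins, and high values mean contact with chromosome 19). Contacts between ends entered it only through the expectation, which was fitted to all trans contacts. The median score was 0.69 over member bins and -0.15 over matched inner bins, with 62.6% of members and 45.4% of matched inner bins above 0. When each pair of bins was set against inner pairs of the same score classes, ends still stood at 1.12 (1.11 to 1.13) in ATRA, 1.11 (1.10 to 1.12) in TPA and 1.23 (1.22 to 1.24) in untreated cells. Against inner bins matched on coverage and score over all autosomes, whose median score was 0.65, the ends stood 1.09-fold higher in ATRA, 1.09-fold in TPA and 1.18-fold in untreated cells. These values were smaller than those matched on coverage alone, and in all 3 matrices still above 1. Both adjustments were chosen after the data were seen.

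The contact was steepest at the outermost bins. The outermost bin of an end contacted the outermost bins of other chromosomes at 2.94 times the expectation in ATRA (2.72 to 3.19, 607 contacts), 2.59 times in TPA (2.40 to 2.79, 692 contacts) and 3.18 times in untreated cells (2.98 to 3.39, 909 contacts). The inner bins matched to them stood at 0.904, 1.00 and 1.10, and the intervals of ends and inner bins did not overlap in any matrix. Set against inner pairs of the same score classes, the outermost bins stood at 2.39 in ATRA, 2.07 in TPA and 2.51 in untreated cells. Their median score was 2.05, within the highest class, so score differences inside that class were not adjusted for. Moving inward, second bins contacted second bins at 2.20 in ATRA, 1.83 in TPA and 2.31 in untreated cells, and bins at position 4 from the end contacted each other at 1.35, 1.37 and 1.46 in the same order of matrices. Bins at position 10 with each other stood at 1.06 in ATRA (0.972 to 1.16), 1.06 in TPA (0.971 to 1.15) and 1.09 in untreated cells (1.00 to 1.18), near the expectation.

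**Figure D1:**
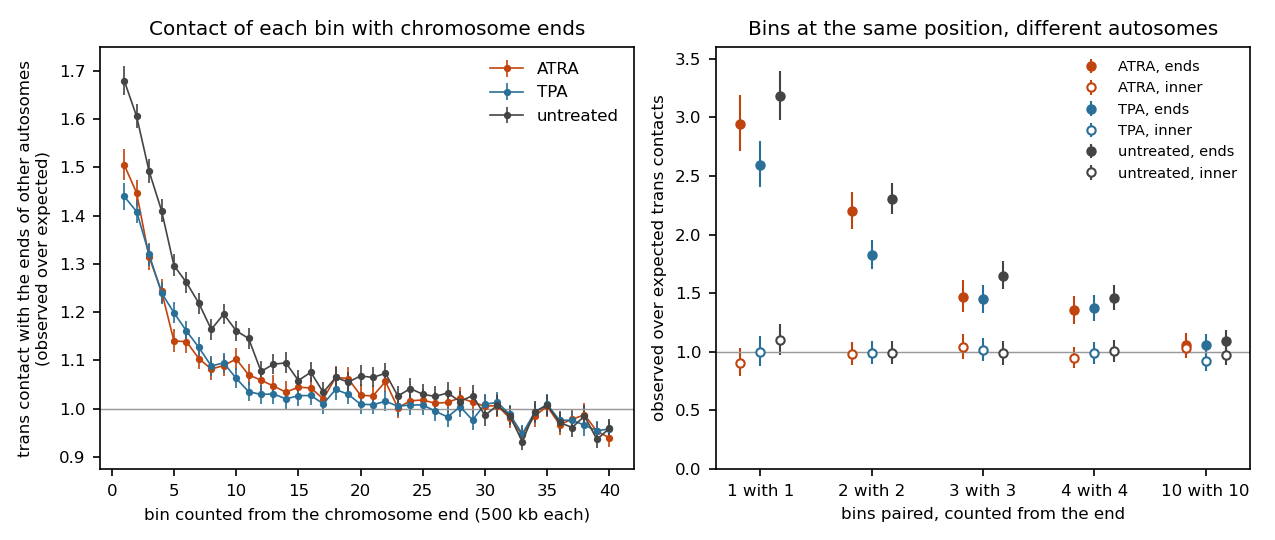
Left, trans contact (observed over expected) of the bin at each position from a chromosome end (x axis, bins of 500 kb) with all ends of other autosomes, and right, contacts between bins at the same position on different autosomes for ends (filled) and matched inner bins (open), in ATRA, TPA and untreated matrices, with bars for 95% counting intervals. Contact is highest at the first bin, 1.51 in ATRA, 1.44 in TPA and 1.68 in untreated cells, and is close to 1 by bin 30.

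Seen from single bins, contact with all ends of other chromosomes was 1.51 in ATRA, 1.44 in TPA and 1.68 in untreated cells at the outermost bin, 1.14, 1.20 and 1.30 at the fifth, and 1.10, 1.06 and 1.16 at bin 10. At bin 20 it was 1.03 in ATRA (1.01 to 1.05), 1.01 in TPA (0.988 to 1.03) and 1.07 in untreated cells (1.05 to 1.09). The excess thus ran past the 5 Mb that define an end, but at bin 20 the interval in TPA held 1. By bin 30 the contact was 1.00 in ATRA, 1.01 in TPA and 0.986 in untreated cells. The compartment score fell along the same path, with a median over ends of 2.05 at the outermost bin, 0.48 at the fifth and 0.05 at bin 10. The counts behind the outermost pairs are small. Of 723 pairs of outermost bins, 354 had a contact in ATRA, 368 in TPA and 389 in untreated cells, and the most for a pair was 7, 11 and 15. Without the 10 pairs with the most contacts, outermost bins stood at 2.73 in ATRA, 2.37 in TPA and 2.90 in untreated cells. Sequence shared between subtelomeres can place reads at the wrong end, and its part was not tested; without the outermost bin of every end, the remaining member bins exceeded inner bins 1.15-fold in ATRA, 1.18-fold in TPA and 1.27-fold in untreated cells.

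In the 3 matrices summed, each of the 39 outermost bins contacted the other outermost bins above the expectation, and the interval lay above it for 35. The highest was 19p, the end with the neutrophil granule genes, at 6.56 in ATRA (35 contacts), 6.96 in TPA (59 contacts) and 7.45 in untreated cells (73 contacts). The outermost bin of 11p, the IFITM end, stood at 4.99 in ATRA, 5.88 in TPA and 7.13 in untreated cells. That of 20q, the RTEL1 end, stood at 5.26, 5.32 and 5.58. Genes name the whole end here, and they were not placed in single bins. The lowest was 3p, at 0.970 in ATRA, 1.35 in TPA and 0.826 in untreated cells on 10 to 17 contacts, and every interval of 3p held 1. Between these, the median outermost bin stood at 3.20 in ATRA, 2.65 in TPA and 3.28 in untreated cells.

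Some ends had this gradient within their own 5 Mb. On 5p, the TERT end, the outer 2 bins contacted all other ends at 1.50 in ATRA, 1.44 in TPA and 1.53 in untreated cells, whereas its bins 9 and 10 stood at 0.882, 0.916 and 0.900. On 10q the outer 2 bins stood at 1.69 in ATRA, 1.57 in TPA and 1.91 in untreated cells, and the inward 2 at 0.885, 0.948 and 1.08. The outer 2 bins were above the inward 2 in 36 of 39 ends in ATRA, 38 in TPA and 36 in untreated cells. On 19q the outer 2 bins stood at 1.15 in ATRA, 1.20 in TPA and 1.59 in untreated cells, and the inward 2 at 1.21, 1.17 and 1.45, so that they were below the inward bins in ATRA only.

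The 39 ends differed widely among themselves. Their contact with all other ends ran from 0.922 to 1.80 in ATRA, from 0.931 to 1.64 in TPA and from 0.851 to 2.20 in untreated cells, whereas the matched inner bins of the same chromosomes ran from 0.959 to 1.09, from 0.900 to 1.07 and from 0.944 to 1.07. The end was above its matched inner bins for 30 of 39 ends in ATRA, 33 in TPA and 30 in untreated cells. The 5 highest in the summed matrices were 19p, 16p, 9q, 8q and 17q. 19p stood at 1.80 in ATRA, 1.64 in TPA and 2.20 in untreated cells. 16p, which holds the alpha-globin genes, stood at 1.71, 1.61 and 2.02 in the same order. 9q, which holds EHMT1, a histone H3 lysine methyltransferase gene, stood at 1.68, 1.60 and 1.82. 8q stood at 1.62 in ATRA, 1.59 in TPA and 1.75 in untreated cells, and 17q at 1.59, 1.49 and 1.87.

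The 5 lowest were 1q, 3p, 2p, 8p and 6q, all with a median score below 0. 1q stood at 0.925 in ATRA, 0.981 in TPA and 0.851 in untreated cells. 3p stood at 0.964, 0.979 and 0.854, and 2p at 0.922, 0.937 and 0.940. 8p stood at 0.979 in ATRA, 0.931 in TPA and 0.946 in untreated cells, and 6q at 0.988, 0.940 and 0.977. Over their 5 Mb, 1 of these 5 was above its matched inner bins in ATRA and in untreated cells, 6q, at 0.988 and 0.977 against 0.961 and 0.945. In TPA 4 of them were, by at most 0.940 against 0.900 in 6q. Other ends with landmark genes lay between: 22q, which holds the synaptic scaffold gene SHANK3, at 1.39 in ATRA, 1.40 in TPA and 1.63 in untreated cells, 1p at 1.29, 1.27 and 1.47, 6p at 1.00, 0.934 and 0.972, and 4q, which holds DUX4 and FRG1, at 0.967, 1.07 and 0.938. 9p, which holds DOCK8, an immune signalling gene, stood at 0.988, 0.990 and 0.967.

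**Figure D2:**
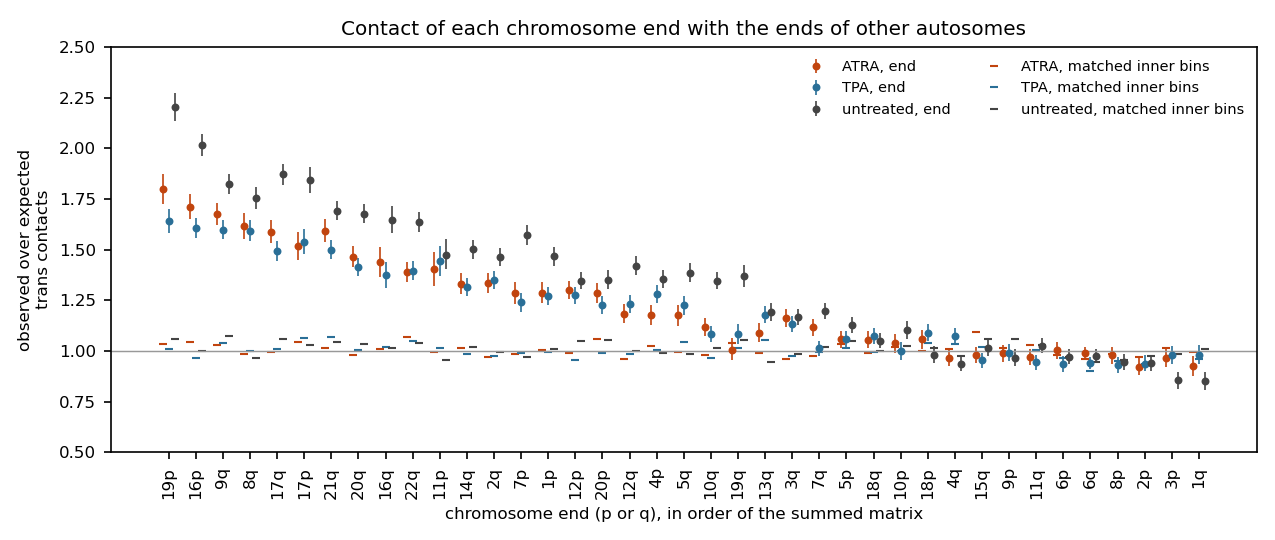
Contact of each of the 39 chromosome ends with all ends of other autosomes (points) and of its matched inner bins with the other matched inner bins (dashes), as observed over expected trans contacts, in ATRA, TPA and untreated matrices, with bars for 95% counting intervals. Ends on the left, led by 19p at 1.80, 1.64 and 2.20, lie above their inner bins, and the last 5, from 6q to 1q, lie below 1 in all 3 matrices.

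The ends' order followed their compartment score. Over the 39 ends, contact with other ends and the median score had a Pearson correlation of 0.93 in ATRA, 0.92 in TPA and 0.91 in untreated cells, a description over ends that share the same libraries and each other's contacts. It was -0.45, -0.41 and -0.48 with chromosome length and -0.17, -0.23 and -0.16 with coverage. Ends with a score at or above the median of the 39 ends contacted each other at 1.94 in ATRA, 1.85 in TPA and 2.17 in untreated cells, and ends below it at 1.06, 1.10 and 1.10. A pair with 1 end of each kind stood at 0.979 in ATRA, 0.946 in TPA and 1.04 in untreated cells. Of the net contacts above the expectation, 97.1% in ATRA, 101% in TPA and 86.6% in untreated cells lay in pairs of upper ends. Pairs of lower ends held 8.25%, 12.0% and 7.01%, and mixed pairs -5.30%, -13.5% and 6.36%. Within score classes the 3 kinds of pairs stood at 1.34, 1.05 and 1.02 in ATRA, in the order upper pair, lower pair and mixed pair, at 1.28, 1.09 and 0.986 in TPA, and at 1.48, 1.09 and 1.11 in untreated cells.

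Contact was higher between ends of the short gene-rich chromosomes 17, 19, 20 and 22. Ends that both lie on them stood at 2.22 in ATRA (2.11 to 2.34), 2.02 in TPA (1.94 to 2.11) and 3.05 in untreated cells (2.94 to 3.16), against 1.30, 1.28 and 1.50 for their inner bins. Ends that both lie on other chromosomes stood at 1.13 in ATRA (1.12 to 1.14), 1.14 in TPA (1.12 to 1.15) and 1.22 in untreated cells (1.21 to 1.23), against 1.00, 0.996 and 1.01. Pairs with 1 end on them stood at 1.32 in ATRA, 1.30 in TPA and 1.49 in untreated cells, against 0.990, 0.978 and 0.975. High contact was not confined to pairs within this set. In the summed matrices, ends of chromosome 16 with 19 stood at 3.53, of 19 with 21 at 2.94 and of 16 with 21 at 2.88. Others were low, such as ends of 6 with 19 at 0.712. Of the contacts above the expectation, 10.8% in ATRA, 10.8% in TPA and 12.99% in untreated cells lay in pairs with both ends on chromosomes 17, 19, 20 and 22, 43.7%, 43.6% and 42.6% in pairs with 1 end there, and 45.5%, 45.6% and 44.4% in the other pairs. The arm made less difference: p ends with p ends stood at 1.20 in ATRA, 1.20 in TPA and 1.31 in untreated cells and q ends with q ends at 1.24, 1.24 and 1.39. The q ends of the acrocentric chromosomes, whose short arms carry the ribosomal DNA, contacted each other at 1.28, 1.36 and 1.40. Over the 231 pairs of autosomes, ends were above the inner bins of the same 2 chromosomes in 180 pairs in ATRA, 178 in TPA and 182 in untreated cells, and in 138 pairs in all 3.

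When all autosomes were divided into 518 blocks of 10 bins, the 39 ends included, 8 of the 10 blocks with the most contact with chromosome ends were ends themselves. The other two were an inner block of chromosome 11 at 64.5 to 69.5 Mb, at 1.45 in ATRA, 1.42 in TPA and 1.76 in untreated cells, and an inner block of chromosome 22 at 37 to 42 Mb, at 1.47, 1.47 and 1.64. Their median scores were 2.92 and 3.16. Of the 50 blocks with the most such contact, 20 were ends.

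Before single pairs of ends are given, it has to be said that HL60 chromosomes are rearranged, and that 7 ends lie in segments joined to another chromosome, seen as clusters of bin pairs with at least 10 times the expected contacts. These are 1p, joined with chromosome 3, 3q with 1 and 14, 4q with 18, 5q with 16, 16p with 17, 16q with 5 and 7, and 17q with 16. Their bin pairs and a margin of 20 bins, 0.291% of all trans bin pairs, were left out. This removed the pair 1p with 3q wholly, and left 723 pairs of ends. The bins of 1p contacted the joined part of 3q at 6.07 times the expectation in ATRA, 7.21 times in TPA and 8.23 times in untreated cells. 4q contacted 43 to 49.5 Mb of chromosome 18 at 11.6 in ATRA, 16.4 in TPA and 16.8 in untreated cells. Without the 7 joined ends, the other ends exceeded inner bins 1.16-fold in ATRA, 1.17-fold in TPA and 1.26-fold in untreated cells.

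In the 3 matrices summed, the pairs with the most contact joined the ends of 16p, 17p, 17q and 19p. The highest was 16p with 19p, the alpha-globin end and the neutrophil granule end, with 196 contacts and a ratio of 7.20 (6.23 to 8.28) in ATRA, 273 and 5.37 (4.76 to 6.05) in TPA, and 403 and 8.33 (7.54 to 9.18) in untreated cells. Within score classes the same pair stood at 3.59 in ATRA, 2.89 in TPA and 4.22 in untreated cells. Median scores were 3.63 in 16p and 4.12 in 19p, far above the 1.48 where the highest class starts, so this adjustment is incomplete for them. The next was 17p with 19p, at 7.07 in ATRA, 5.01 in TPA and 8.38 in untreated cells, the highest pair of the untreated matrix. 17q with 19p stood at 5.25, 3.66 and 6.12. None of these 3 pairs lies on chromosomes found joined to each other.

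16p with 17p stood at 5.18 in ATRA, 3.49 in TPA and 5.12 in untreated cells, and 16p with 17q at 4.61, 3.50 and 5.21, but 16p is joined with inner parts of chromosome 17, and with a margin of 40 bins the second of these pairs had no bin pair left and the first 60. 7p with 16q stood at 4.99 in ATRA, 5.02 in TPA and 6.59 in untreated cells, and 4q with 18q at 3.50, 4.23 and 4.02. In both pairs the joined segment reaches into an end: it holds all 10 bins of 4q and 3 bins of 16q. Only the partner sides, 43 to 49.5 Mb of chromosome 18 and 100 to 102 Mb of chromosome 7, lie inward of 18q and 7p. Neither pair was touched by the wider margin. 19p also took part in the rest of the 10 highest, with 9q at 3.93 in ATRA, 3.42 in TPA and 5.11 in untreated cells, with 21q at 4.33, 3.15 and 4.93, and with 8q at 4.05, 3.34 and 3.62.

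The lowest pairs of the summed matrices also held 19p or 16p, each with an end of low score. 2p with 19p had 20 contacts and a ratio of 0.545 (0.333 to 0.842) in ATRA, 12 and 0.246 (0.127 to 0.429) in TPA, and 24 and 0.510 (0.327 to 0.759) in untreated cells. 11q with 19p stood at 0.402 in ATRA, 0.380 in TPA and 0.493 in untreated cells, and 4q with 19p at 0.583, 0.558 and 0.284. 8p with 19p stood at 0.368, 0.609 and 0.505, and 4q with 16p at 0.598, 0.442 and 0.635. Thus 19p was in 6 of the 10 highest pairs and in 4 of the 5 lowest.

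**Figure D3:**
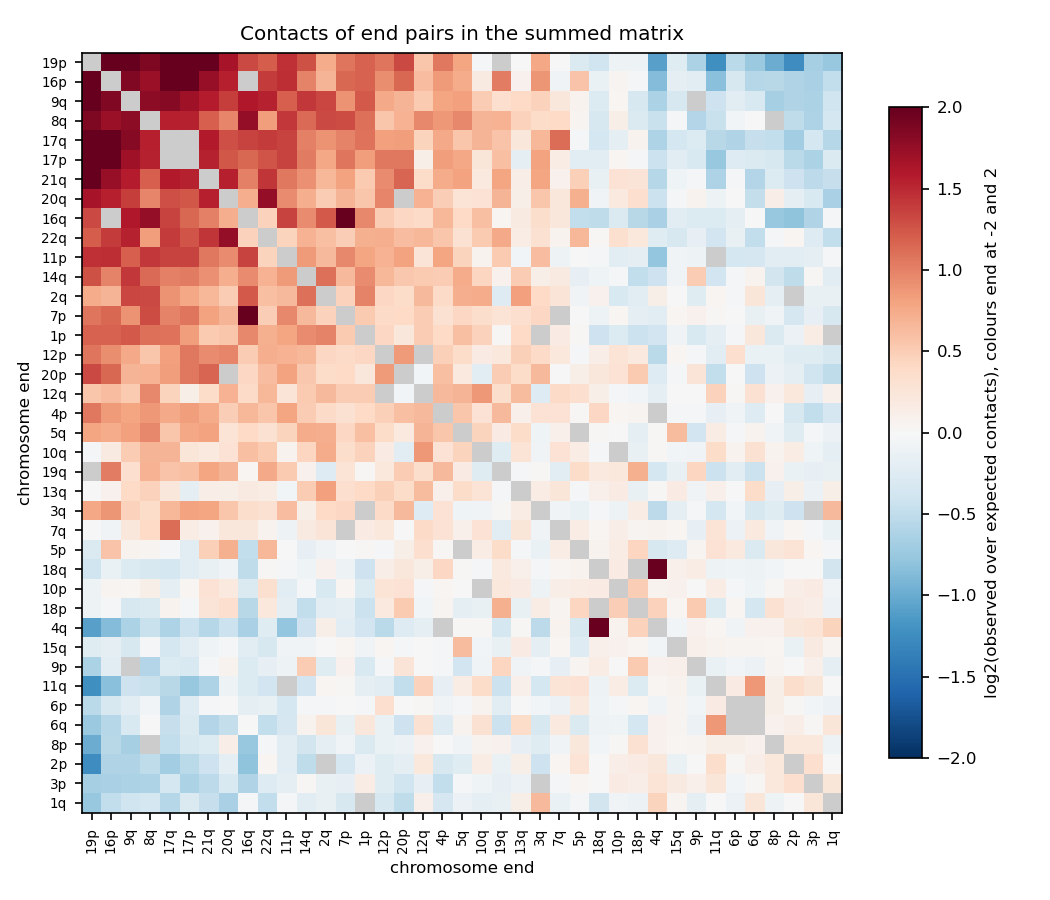
Observed over expected contacts (log2, in colour) of each pair of chromosome ends on different autosomes in the 3 matrices summed, with ends ordered by their contact with all other ends on both axes; grey marks pairs on 1 chromosome and the joined pair 1p with 3q. The upper left corner, with 19p, 16p, 17p and 17q, holds the highest pairs, the pairs of 19p with 2p, 11q and 4q are low, and 7p with 16q and 4q with 18q stand apart.

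A pair was called when it stood at 1.5 or more in all 3 matrices. This held for 111 of the 723 pairs of ends, 15.4%, against 1.14% of all 126119 pairs of blocks of 10 bins on different autosomes. The pairs were spread unevenly over the ends: 19p took part in 18, 16p and 17q in 16 each, 8q, 9q, 17p and 21q in 15 each, and 12 ends in none, among them 5p, 6p, 9p and 19q. The median pair of ends stood at 1.08 in ATRA, 1.05 in TPA and 1.12 in untreated cells, against 0.988, 0.977 and 0.987 for pairs of matched inner bins. The upper quartile of the pairs lay at 1.39 in ATRA, 1.43 in TPA and 1.59 in untreated cells and the lower at 0.882, 0.858 and 0.875, against 1.10, 1.11 and 1.10 and 0.879, 0.875 and 0.877 for inner pairs. Pairs of ends stood above 1 in 60.4% of cases in ATRA, 56.7% in TPA and 60.6% in untreated cells, against 46.1%, 44.2% and 47.2% of inner pairs.

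Contacts between chromosome ends were lower in ATRA and in TPA than in untreated cells. The ratio of ends to inner bins in ATRA was 0.905 of that in untreated cells (0.889 to 0.921), and in TPA 0.914 of it (0.898 to 0.930). The inner bins alone stood at 0.993 of untreated in ATRA (0.980 to 1.01) and 0.986 in TPA (0.973 to 0.999). Both comparisons share the untreated matrix, so they are not independent of each other. Within score classes the ends stood at 0.910 of untreated in ATRA and 0.900 in TPA. With medians over pairs in place of sums, the ratio of ends to inner bins moved less, to 0.963 of untreated in ATRA and 0.953 in TPA.

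Other measures of the ends moved between the matrices too. The share of all coverage that fell on member bins was 7.78% in ATRA, 8.30% in TPA and 8.67% in untreated cells, against 8.17%, 8.24% and 8.34% for the matched inner bins. The members' share of trans contacts, given above, was higher in both treated matrices than in the untreated one. This was not particular to the ends: over all bins the share was 70.6% in ATRA, 66.0% in TPA and 63.7% in untreated cells. A score computed in each matrix alone had a median over member bins of 0.47 in ATRA, 0.60 in TPA and 1.05 in untreated cells. Inner bins of the highest of 10 score classes contacted each other at 2.01 in ATRA, 1.86 in TPA and 1.97 in untreated cells. The part of these in the lower contact between ends was not tested, and ATRA is a single library.

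By position, the outermost bins with each other stood at 0.926 of untreated in ATRA (0.834 to 1.03) and 0.816 in TPA (0.738 to 0.902), so that the interval held 1 in ATRA and not in TPA. Bins 1 to 5 with bins 1 to 5 stood at 0.878 of untreated in ATRA and 0.860 in TPA, and bins 6 to 10 with bins 6 to 10 at 0.930 and 0.927. By chromosome, ends that both lie on 17, 19, 20 or 22 stood at 0.729 of untreated in ATRA (0.685 to 0.775) and 0.665 in TPA (0.628 to 0.703). Inner bins of the same chromosomes were lower too, at 0.869 in ATRA (0.804 to 0.939) and 0.850 in TPA (0.790 to 0.916), so that relative to them the ends stood at 0.839 (0.760 to 0.926) and 0.781 (0.713 to 0.857). Ends that both lie elsewhere stood at 0.927 in ATRA (0.913 to 0.941) and 0.933 in TPA (0.920 to 0.946), and relative to inner bins at 0.935 and 0.946. Pairs of ends with low scores were nearly level, at 0.963 in ATRA (0.939 to 0.988) and 1.00 in TPA (0.977 to 1.03).

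Single ends were lower than in untreated cells in 30 of 39 cases in ATRA and 33 in TPA, with the interval below 1 in 23 and 26 and above 1 in 3 and 4. The matched inner bins were lower in 23 and 27 of 39, over a narrower range, 0.938 to 1.05 in ATRA and 0.913 to 1.12 in TPA, against 0.736 to 1.13 and 0.745 to 1.15 for ends. The lowest in ATRA was 19q, at 0.736 of untreated (0.689 to 0.786). After it came 19p at 0.816, 7p at 0.817, 17p at 0.822 and 10q at 0.830. In TPA the lowest were 19p at 0.745 (0.710 to 0.781), 7p at 0.788, 19q at 0.790, 16p at 0.797 and 17q at 0.798. 19q thus stood at 1.01 in ATRA and 1.08 in TPA against 1.37 in untreated cells.

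The 5 ends highest against untreated in each treatment were all below 1 in untreated cells, and the untreated value enters both figures. In ATRA they were led by 3p at 1.13 (1.05 to 1.21), 1q at 1.09 (1.01 to 1.17), 18p at 1.08 (1.01 to 1.14), 8p at 1.04 and 6p at 1.03, the last 2 with intervals that held 1. In TPA they were led by 1q at 1.15 (1.07 to 1.23), 3p at 1.15 (1.07 to 1.23), 4q at 1.14 (1.08 to 1.21), 18p at 1.11 (1.05 to 1.18) and 9p at 1.02. Of these, 18p in both treatments and 4q in TPA stood above 1 in the treated cells, at 1.06, 1.09 and 1.07, and 6p in ATRA at 1.00.

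**Figure D4:**
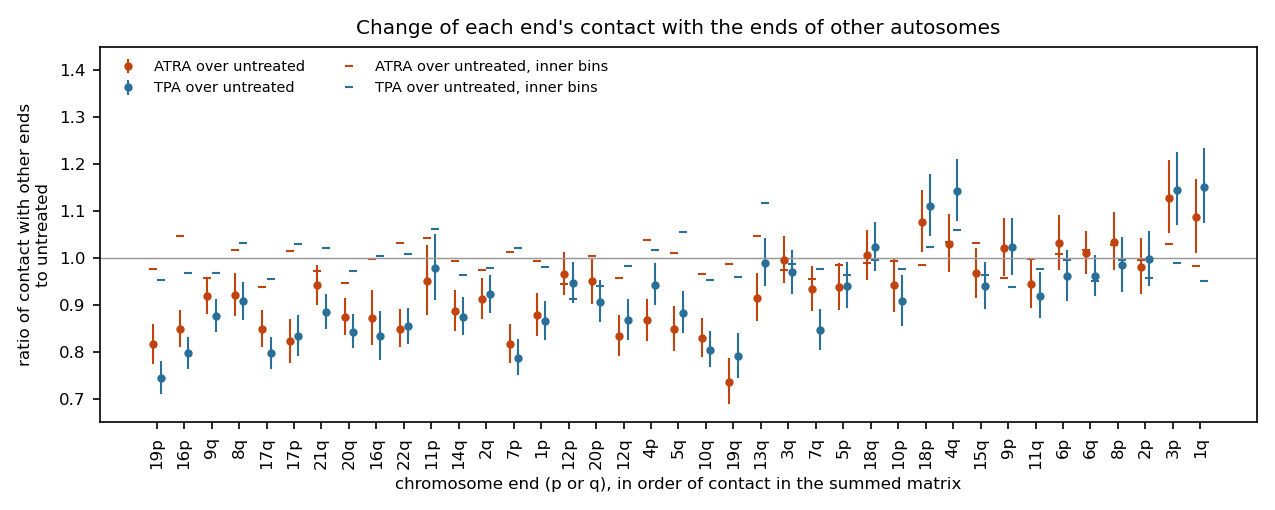
Ratio to untreated of each end's contact with the ends of other autosomes in ATRA and TPA (points, with 95% counting intervals) and of its matched inner bins (dashes), with ends in order of their contact in the summed matrices. Ends on the left, such as 19p at 0.816 in ATRA and 0.745 in TPA, lie below 1, whereas 3p at 1.13 and 1.15 and 1q at 1.09 and 1.15, at the right margin, lie above it.

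Over pairs of ends, 48 of 723 (6.64%) were at least 1.5-fold below untreated in ATRA, against 4.69% of all pairs of blocks, and 21 (2.90%) were at least 1.5-fold above, against 5.62%. In TPA 77 pairs (10.7%) were at least 1.5-fold below, against 5.23%, and 28 (3.87%) at least 1.5-fold above, against 5.94%. Pairs of ends had more expected contacts than pairs of blocks, with medians of 68.3 and 42.8 in untreated cells, so fewer of them pass such a limit by counting error. The share below was above the background in both treatments, and the share above was under it. The pair 16p with 19p stood at 0.865 of untreated in ATRA (0.725 to 1.03) and 0.645 in TPA (0.551 to 0.754), and 17p with 19p at 0.843 (0.684 to 1.03) and 0.598 (0.492 to 0.725). 9q with 19p stood at 0.769 in ATRA (0.621 to 0.947) and 0.668 in TPA (0.555 to 0.803). By contrast, 4q with 18q stood at 0.869 in ATRA (0.735 to 1.03) and 1.05 in TPA (0.897 to 1.23), and 4q is joined with chromosome 18.

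The contact between both ends of a chromosome was measured on the 17 autosomes with a p end and a q end. Their p and q ends contacted each other at 2.36 times the trans expectation in ATRA (2.26 to 2.46, 2157 contacts), 2.41 times in TPA (2.32 to 2.51, 2581 contacts) and 2.89 times in untreated cells (2.79 to 2.99, 3207 contacts). These values were above those of the same ends with other chromosomes in 13 chromosomes in ATRA, 15 in TPA and 14 in untreated cells. Bins of 1 chromosome as a rule contact each other more than bins of different ones, so both ends were also set against inner bins on opposite arms of other autosomes at the same distance. Of the 17 chromosomes, 15 had such a reference, and the 2 longest, 1 and 2, had none.

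Against it, both ends stood at 1.08 in ATRA (1.03 to 1.13), 0.885 in TPA (0.849 to 0.922) and 1.13 in untreated cells (1.09 to 1.18), so the sum over chromosomes lay near the level of inner bins. Against the 20 bins beside the opposite end, over 17 chromosomes, the values were 1.11 (1.05 to 1.16), 1.04 (0.998 to 1.09) and 1.15 (1.11 to 1.20), so TPA changed sides with the choice. This sum hid opposite values of single chromosomes. In ATRA 4 of the 15 had an interval above their reference and 4 an interval below it. In TPA these were 2 and 8, and in untreated cells 7 and 7. Without chromosomes 17, 19, 20 and 22, both ends stood at 0.871 in ATRA (0.824 to 0.920), 0.740 in TPA (0.703 to 0.778) and 0.903 in untreated cells (0.863 to 0.946), so the value above 1 in ATRA and in untreated cells rested on these chromosomes. With the outer 5 bins per end only, they stood at 1.45 in ATRA, 1.13 in TPA and 1.42 in untreated cells.

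The highest contact in untreated cells was between the ends of chromosome 19, at 3.71 times the trans expectation in ATRA (2.94 to 4.61, 81 contacts), 4.10 in TPA (3.46 to 4.81, 148 contacts) and 7.78 in untreated cells (6.90 to 8.74, 282 contacts). Inner bins at that distance stood at 3.05 in ATRA, 3.83 in TPA and 3.53 in untreated cells. The ends of chromosome 19 were nevertheless below the bins next to them: each end with the 20 bins beside the opposite end stood at 10.4 in ATRA, 8.68 in TPA and 11.2 in untreated cells. The ends of chromosome 17 stood at 6.90 in ATRA, 4.47 in TPA and 7.22 in untreated cells, against 2.31, 3.09 and 2.92 for inner bins at that distance. Those of chromosome 20 stood at 6.05, 5.79 and 5.68, against 2.89, 3.80 and 3.55. In untreated cells chromosomes 12 and 10 followed, with 3.05 and 2.64 in ATRA, 2.77 and 2.93 in TPA, and 3.84 and 3.51 in untreated cells. Chromosome 18 stood at 2.88 in ATRA and 3.72 in TPA, above chromosome 10 in ATRA and above both in TPA, and at 2.59 in untreated cells.

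The ends of chromosome 16 differed most from the bins beside them. They contacted each other at 2.57 in ATRA, 2.25 in TPA and 3.35 in untreated cells, whereas each with the 20 bins beside the opposite end stood at 0.842, 0.718 and 0.793. 16p and 16q are both joined with other chromosomes, and this chromosome was singled out after its values were seen. At the other extreme, the ends of chromosome 3 stood at 0.797 in ATRA (0.585 to 1.06), 0.707 in TPA (0.513 to 0.948) and 0.841 in untreated cells (0.624 to 1.11), against 2.20, 2.32 and 2.25 for inner bins at that distance. Those of chromosome 9 stood at 1.16, 1.19 and 1.03, against 2.42, 2.99 and 2.84. Those of chromosome 1, with no reference, stood at 1.10 in ATRA, 1.61 in TPA and 1.08 in untreated cells. The intervals of these 3 chromosomes held 1, the level of bins on different chromosomes, except in TPA, where that of chromosome 3 lay below it and that of chromosome 1 above it (1.28 to 2.01). 3q and 1p lie in joined segments too, and the part of this in their values was not tested. The reference for chromosome 3 came from only 2 other autosomes, with 1103 bin pairs.

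**Figure D5:**
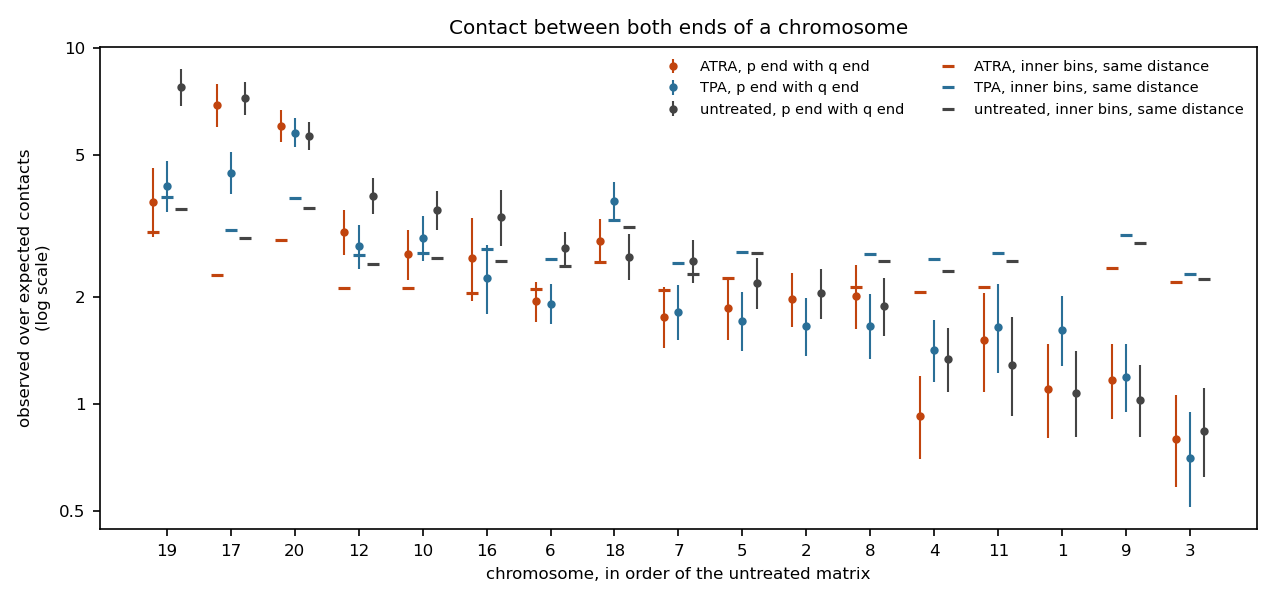
Contact between the p end and the q end of each of 17 autosomes (points, observed over the trans expectation, log scale, with 95% counting intervals) and of inner bins on opposite arms of other autosomes at the same distance (dashes), in ATRA, TPA and untreated matrices. Chromosomes 19, 17 and 20 lie highest, at 7.78, 7.22 and 5.68 in untreated cells. Chromosomes 3, 4, 5, 8, 9 and 11 lie below their dashes in all 3 matrices.

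Relative to inner bins at the same distance, contact between both ends in ATRA was 0.954 of that in untreated cells (0.900 to 1.01), an interval that held 1, and in TPA it was 0.780 of it (0.738 to 0.825). Relative to the bins beside the opposite end the values were 0.958 in ATRA (0.901 to 1.02) and 0.904 in TPA (0.852 to 0.959). Over the trans expectation, chromosome 19 had the lowest value in both treatments, and its ends stood at 0.477 of untreated in ATRA (0.367 to 0.612) and 0.527 in TPA (0.429 to 0.645). Chromosome 17 stood at 0.956 in ATRA (0.801 to 1.14) and 0.619 in TPA (0.519 to 0.736). Chromosome 18 stood at 1.11 in ATRA (0.899 to 1.37) and 1.43 in TPA (1.18 to 1.74), chromosome 1 at 1.02 (0.671 to 1.55) and 1.50 (1.04 to 2.16), and chromosome 11 at 1.17 (0.738 to 1.85) and 1.28 (0.829 to 1.98). Chromosome 20 stood at 1.07 in ATRA (0.925 to 1.23) and 1.02 in TPA (0.895 to 1.16). Relative to inner bins at the same distance, chromosome 19 stood at 0.552 of untreated in ATRA and 0.486 in TPA, chromosome 17 at 1.21 and 0.585, chromosome 18 at 1.39 and 1.37, and chromosome 20 at 1.31 and 0.954, so that chromosome 17 in ATRA and chromosome 20 in TPA changed sides of 1 with the scale.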

How the data were processed

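Hi-C of HL60 cells was analysed from 3 matrices that hold, for each pair of 500 kb bins, the raw count of contacts, as the authors deposited them without normalization, per the file headers. The libraries of untreated and of TPA cells were merged, per the labels. Reads were aligned with Bowtie to hg19 and binned with HOMER 4.7, per the submitters' processing notes; the design text also names HiCUP as the read-pair filter. Members and measures were chosen with earlier results of these data known. A bin's coverage is the sum of its contacts in the 3 matrices summed, and members needed 0.2 of the median. Trans expectations were products of bin factors fitted in 100 iterations to all trans contacts outside joined segments (bin pairs with at least 20 contacts and 10 times the expectation, in clusters of 5 or more, with a margin of 20 bins). Inner bins were matched 1 to 1 on log2 coverage within a chromosome. Both ends were compared with inner pairs on opposite arms within 5 bins of the same distance, with coverage between the 10th and 90th percentile of the ends and at least 1000 pairs. Intervals are exact Poisson intervals for a ratio to expectation and exact conditional binomial intervals for a ratio of 2 such values. They come from the counts' errors on the log scale for ratios of such ratios, for the sums over both ends of a chromosome, and for the change of all ends or all matched inner bins together. The regions named are the 5 highest and lowest ends, the 10 highest and 5 lowest pairs, the 5 ends that rank highest and lowest against untreated, the 5 highest and 3 lowest chromosomes, all joined ends, and the landmark genes, whose chromosome was checked in RefSeq. Positions are those of the matrices; no hg19 sequence was used here. The measures were tested on simulated matrices that held no compartments and no joined segments, so the effect of these on the measures was not tested there. Python 3.11.15, numpy 2.4.6, scipy 1.17.1 and pandas 2.3.3 were used.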

Additional observations from a re-analysis of the deposited data

How the results depend on the processing

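No paired analysis was possible because the libraries of untreated and of TPA cells, which share replicate numbers, were merged before deposit; for the same reason no library could be left out, and ATRA is 1 library. The excess of trans contact between ends over inner bins stayed above 1 in all 3 matrices under each alternative run, and its ratio to untreated stayed below 1 in ATRA and TPA under each. In the order ATRA, TPA and untreated, the excess was 1.54, 1.51 and 1.71 with 5 bins per end, 1.07, 1.07 and 1.13 with 20 bins per end, 1.15, 1.18 and 1.27 without the outermost bins, 1.15, 1.15 and 1.25 with inner bins matched on coverage and score within a chromosome, where the match fell short (median score 0.69 in the ends and 0.39 in the inner bins), and 1.18, 1.19 and 1.29 with a coverage filter of 0.5. It was 1.09, 1.08 and 1.13 by the median over pairs, 1.13, 1.14 and 1.21 without chromosomes 17, 19, 20 and 22, 1.12, 1.11 and 1.23 within score classes, 1.24, 1.26 and 1.42 with the expectation fitted without contacts between ends, 1.16, 1.17 and 1.26 without joined ends, and 1.09, 1.09 and 1.18 with coverage and score matched over all autosomes. With the product of total coverages it was 1.26 in TPA and 1.36 in untreated cells.

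The ratio of this excess to untreated was 0.881 in TPA with 5 bins, 0.953 in ATRA and 0.946 in TPA with 20 bins, 0.883 in ATRA with the product of coverages, 0.963 and 0.953 by the median, 0.935 and 0.946 without chromosomes 17, 19, 20 and 22, 0.874 and 0.887 without contacts between ends in the fit, and 0.926 in ATRA with coverage and score matched over all autosomes. Outermost bins with each other, an outcome chosen after the data were seen, stood at 3.03 in TPA and 3.72 in untreated cells with the product of coverages, 2.35 in TPA with a coverage filter of 0.5, 2.38, 2.24 and 2.70 in the 3 matrices without chromosomes 17, 19, 20 and 22, 2.39, 2.07 and 2.51 within score classes, 3.21, 2.82 and 3.65 without contacts between ends in the fit, and 2.96 in untreated cells with small clusters left out too.

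Contact between both ends of a chromosome was less stable. It was 1.45 in ATRA, 1.13 in TPA and 1.42 in untreated cells with 5 bins per end, where the ratio to untreated in ATRA was 1.02, and 0.871, 0.740 and 0.903 without chromosomes 17, 19, 20 and 22. It was 1.15, 0.997 and 1.23 with the product of coverages, 1.04 in TPA against the bins beside the opposite end (0.904 of untreated), 1.21 in untreated cells without contacts between ends in the fit, and 0.941 in TPA without chromosomes with a joined end. The side of 1 thus changed in TPA with 5 bins and with the other reference, and in ATRA and untreated cells without the 4 chromosomes; the cause was not tested. With 5 bins per end, 8p turned to 1.03 in TPA and in untreated cells, and 6q to 1.00 in TPA. Low contact counts stand behind most pairs of ends and chromosomes, which limits single pairs.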
